A study of Mus musculus with 6 samples.

Results

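The BCL2 family decides, at the outer mitochondrial membrane, whether a cell lives or enters apoptosis. Transcripts of 10 of its genes were followed in mouse haematopoietic stem cells (HSCs) that differed in surface CD38. The 10 genes were chosen by name, as the rows whose Ensembl identifier maps to each symbol, and all 10 were found among the 49585 genes of each count table. They comprise 4 survival genes (Bcl2, Bcl2l1, Mcl1 and Bcl2l2) and 6 death genes. The death genes are the 2 effectors Bax and Bak1 and the 4 BH3-only genes Bcl2l11, Bbc3, Bid and Bad. All 10 passed the filter on low counts, and each had 1 row in the tables.

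In this family the survival proteins hold the effectors in check, the effectors form pores that release cytochrome c, and the BH3-only proteins relay stress signals by binding either kind. Cytochrome c then assembles the apoptosome with APAF1 and caspase-9, which activates the executioner caspases. MCL1 is known to be required for the survival of HSCs, and forced expression of BCL2 is known to enlarge the HSC pool.

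The libraries came from bone marrow of untreated C57BL/6 mice aged 8 to 16 weeks. Cells negative for lineage markers, CD48 and CD34 and positive for Kit, Sca-1, CD150 and CD201 were sorted and then parted into CD38-positive (CD38hi) and CD38-negative (CD38lo) HSCs, so both populations share every other gate. Each population had 3 libraries, each made from cells of 10 pooled mice, and the design matches them into 3 pairs without saying whether a pair shared its mice. The series concerns CD38 activity and dormancy, and the comparison here asks whether the balance of survival and death transcripts differed between the populations.

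Total counts ran from 16771180 to 18558610 per library. Levels are given as CPM, counts scaled to the size of the library. Cd38 itself averaged 47.2 ± 10.7 CPM (SD, n = 3) where its protein was high and 27.9 ± 6.70 CPM (SD, n = 3) where it was low. It was higher in 3 of 3 pairs, as were 13.2% of all genes tested. All 12 genes on the list of stem cell sort and identity markers were detected in every library. That list includes Cd38 itself, and also Cd34 and Cd48, for whose proteins the sorted cells were negative. Cd34 averaged 242 CPM and Cd48 81.6 CPM over the 6 libraries, so detection alone does not mark stem cells. The summed share of 16 granulocyte and monocyte markers was 8.21% to 15.8% of counts in CD38-positive and 9.24% to 13.3% in CD38-negative libraries, although the sort excluded lineage-positive cells, and none of the 16 was at 0. The share of 11 B and plasma cell markers was 0.0350% to 0.0944% in CD38-positive and 0.129% to 0.340% in CD38-negative libraries, lower in 3 of 3 pairs. Erythroid markers gave 0.495% to 1.10% of counts over both populations, and T and NK cell and endothelial and stromal markers at most 0.0308% and 0.0249%. The part of these other cells in the values below was not tested, and in bulk RNA fewer cells of a type and less RNA per cell cannot be told apart. CD38-negative replicate 2 held the highest level of 7 of the 12 stem cell markers, among them Kit at 556 CPM against 110 to 227 CPM elsewhere. Of the 16 granulocyte and monocyte, the 10 erythroid and the 9 endothelial and stromal markers, 0 had their highest level in it. Of the 11 B and plasma cell markers 3 did, and of the 10 T and NK cell markers 1 did. This library also held the highest level of 5 of the 10 BCL2 family members and the lowest level of 3. The share of all genes with an extreme in it was not counted.

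No member passed the test of a difference between the populations. By edgeR's quasi-likelihood test with the pair as a block, 0 of 10 passed an adjusted p of 0.05, where 0.0135% of all 14785 genes tested did. At an unadjusted p under 0.05 there were again 0 of 10, against 5.08% of all genes, and DESeq2 and limma-voom with the same block also called 0. The smallest adjusted p among the members was 0.929. The median log2 fold change of the members was -0.02, with 4 positive and 6 negative, and that of all genes tested was 0.00. Levels of the populations overlapped for 10 of 10 members, where 6.53% of all genes did not overlap. For 8 of the 10 the 95% interval of the log2 fold change lay within -1 to 1, so that a 2-fold difference fell outside it. Bak1 and Bbc3, which had few reads, were the exceptions.

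**Figure D1:**
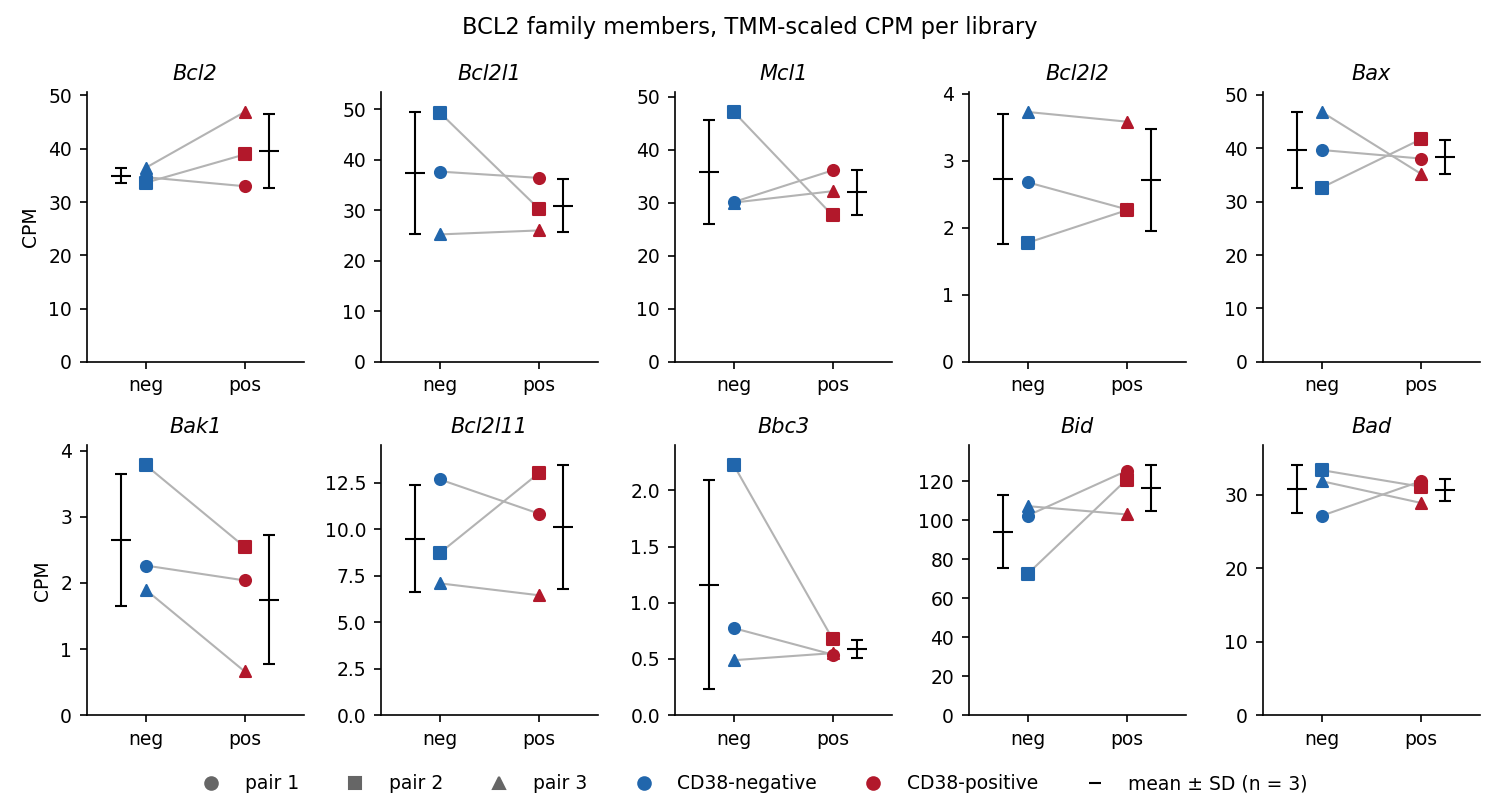
Normalised level (CPM, linear axes from 0) of each of the 10 members in CD38-negative (blue) and CD38-positive (red) libraries, with grey lines joining the libraries of a pair and black bars giving the mean ± SD (n = 3). The populations overlap in every panel. The CD38-negative library of pair 2 (square) is the highest for Mcl1, Bcl2l1, Bak1, Bbc3 and Bad and the lowest for Bcl2l2, Bax and Bid.

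Levels of different genes were compared as CPM per kilobase of annotated exon, a scale that allows for gene length. On it the death genes Bid, Bax and Bad were the most abundant members, at 29.6 ± 5.24, 24.7 ± 3.15 and 12.0 ± 0.885 CPM per kilobase (SD, n = 6 libraries of both populations). The survival genes followed, with Mcl1 at 9.90 ± 2.07, Bcl2l1 at 7.46 ± 1.97 and Bcl2 at 4.07 ± 0.567 CPM per kilobase (SD, n = 6). The remaining members were scarce: Bcl2l11 had 1.22, Bak1 0.913, Bcl2l2 0.609 and Bbc3 0.413 CPM per kilobase on average. Neighbours in this order were separated without overlap of their ranges at 3 steps, between Bax and Bad, between Bcl2l1 and Bcl2, and between Bcl2 and Bcl2l11. Bid and Bax overlapped in range, as did Bad and Mcl1, Mcl1 and Bcl2l1, and each neighbouring pair of the 4 scarcest. Within single libraries Bid exceeded Bax in 5 of 6 on this scale, and in 6 of 6 per kilobase of the longest transcript. The order of Mcl1 and Bcl2l1 turned with the length used. Mcl1 was the higher in 6 of 6 libraries per kilobase of all annotated exons, but Bcl2l1 was the higher in 6 of 6 per kilobase of the longest transcript, at 13.3 ± 3.52 against 9.90 ± 2.07 (SD, n = 6).

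Among the survival genes, Mcl1 (ENSMUSG00000038612, GRCm38 chromosome 3, 95658788 to 95663176, plus strand) encodes a short-lived protein that binds BIM and BAK. Mcl1 was at 36.1, 27.6 and 32.2 CPM in CD38-positive replicates 1, 2 and 3, and at 30.1, 47.1 and 30.0 CPM in their CD38-negative partners. The CD38-negative library of pair 2 was the highest of the 6, and the other 5 lay between 27.6 and 36.1 CPM with both populations intermixed. The log2 fold change (CD38-positive over CD38-negative) was -0.14 (95% interval -0.64 to 0.37; edgeR unadjusted p = 0.576, adjusted p = 0.963). Without pair 2 its sign turned, to 0.17.

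Bcl2l1 (ENSMUSG00000007659, chromosome 2, 152780668 to 152831728, minus strand) encodes BCL-XL, a survival protein also known for sustaining erythroid cells and platelets. It was at 36.4, 30.4 and 26.0 CPM in CD38-positive replicates 1 to 3 and at 37.7, 49.4 and 25.3 CPM in the CD38-negative partners. Again CD38-negative replicate 2 was the highest, while the libraries of pair 1 and those of pair 3 differed little. The log2 fold change was -0.24 (95% interval -0.71 to 0.24; edgeR adjusted p = 0.936), and without pair 2 it was -0.01.

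Bcl2 (ENSMUSG00000057329, chromosome 1, 106538178 to 106714274, minus strand), the founding member of the family, measured 33.0, 38.9 and 46.9 CPM in the CD38-positive and 34.7, 33.6 and 36.4 CPM in the CD38-negative libraries. CD38-positive replicates 2 and 3 lay above the 3 CD38-negative libraries, while replicate 1 lay below them. The log2 fold change was 0.17 (95% interval -0.27 to 0.61; edgeR adjusted p = 0.947). Exons of the antisense gene D630008O14Rik, with 713 reads over the 6 libraries, share 558 bases with those of Bcl2. Bcl2l2 (ENSMUSG00000089682, chromosome 14, 54883377 to 54888234, plus strand), which encodes BCL-W, had between 32 and 65 reads per library and a log2 fold change of 0.01 (95% interval -0.80 to 0.82). Its exons share 594 bases with the same-strand gene Gm20521, which had 0 reads, so reads assigned to neither would lower the count of Bcl2l2.

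Of the effectors, Bax (ENSMUSG00000003873, chromosome 7, 45461697 to 45466898, minus strand) was the abundant one. It was at 38.1, 41.6 and 35.3 CPM in CD38-positive and at 39.7, 32.6 and 46.8 CPM in CD38-negative libraries. Pair 2 was higher and pair 3 lower in the CD38-positive library, and the log2 fold change was -0.04 (95% interval -0.50 to 0.42; edgeR adjusted p = 0.984). Bak1 (ENSMUSG00000057789, chromosome 17, 27019810 to 27029009, minus strand), the other pore former, had read counts of 34, 45 and 12 in CD38-positive replicates 1 to 3 and of 38, 68 and 31 in their partners. It was lower in the CD38-positive library of 3 of 3 pairs, the 1 member of 10 with the same direction in every pair, where 24.5% of all genes had one and 11.3% were lower in all 3. Its log2 fold change of -0.70 had a wide 95% interval, -1.62 to 0.23 (edgeR unadjusted p = 0.132, adjusted p = 0.929), and its CPM values overlapped between populations. Ggnbp1, on the opposite strand, shares 614 exon bases with Bak1, and Gm45808, with 0 reads, shares 192 with Bax.

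**Figure D2:**
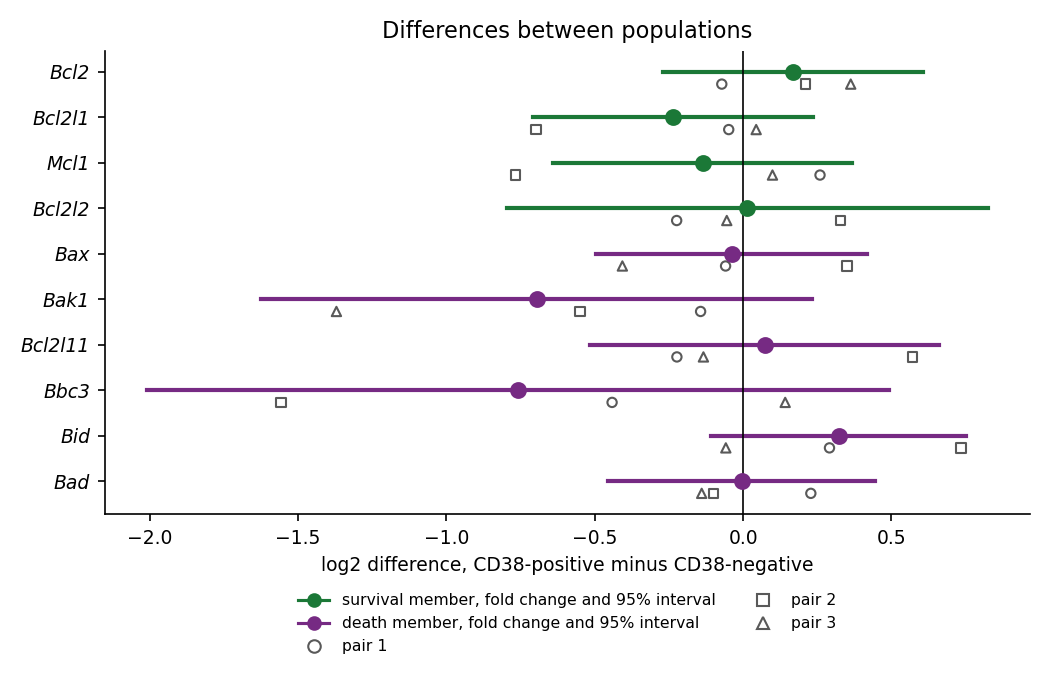
Log2 difference between CD38-positive and CD38-negative libraries for the 10 members: filled points and lines give the edgeR fold change and its 95% interval (green survival, purple death), open symbols the differences of the single pairs from log2 CPM with a prior count of 2. Every interval holds 0. Pair 2 (square) is the lowest of the 3 pairs for Mcl1, Bcl2l1 and Bbc3 and the highest for Bcl2l2, Bax, Bcl2l11 and Bid. Every gene has a lowest and a highest pair, so this is a description only.

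The BH3-only gene Bid (ENSMUSG00000004446, chromosome 6, 120891930 to 120916853, minus strand) links death receptors and caspase-8 to mitochondria. It was at 125, 121 and 103 CPM in CD38-positive and at 102, 72.6 and 107 CPM in CD38-negative libraries. The CD38-negative library of pair 2 was the lowest, and pair 3 went slightly the other way. Bid had the largest positive log2 fold change of the 10, 0.32 (95% interval -0.11 to 0.75; edgeR unadjusted p = 0.132, adjusted p = 0.929), which was 0.10 without pair 2. Bcl2l13, on the opposite strand with 6268 reads over the 6 libraries, shares 628 exon bases with Bid, 17.7% of its exon length, so reads there cannot be assigned without strand.

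Bad (ENSMUSG00000024959, chromosome 19, 6941861 to 6951899, plus strand), whose protein is held inactive by growth factor signalling, was the steadiest member. It was at 31.8, 31.1 and 28.9 CPM in CD38-positive and at 27.2, 33.4 and 31.9 CPM in CD38-negative libraries. For Bad the log2 fold change was -0.00 (95% interval -0.45 to 0.45). All 6 libraries lay between 27.2 and 33.4 CPM, with CD38-negative replicate 2 the highest. Gpr137, on the opposite strand, shares 524 exon bases with it.

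Bcl2l11 and Bbc3 encode BIM and PUMA, BH3-only proteins known as targets of FoxO transcription factors, which guard HSC quiescence. A promoter window of each is shown (250 bases before to 50 after the annotated start, RefSeq, GRCm38.p6). Bcl2l11 and Bbc3 are the 2 of the 10 members with a window that holds the FoxO core GTAAACA or its reverse complement TGTTTAC, given in capitals. Both strands were searched in 16 windows of the 10 members. The motif was chosen after the windows were read. It was held by 2 of the 16 windows and by 3.65% of all windows searched. Other windows of Bcl2l11 and Bbc3 held neither form and are not shown. Among all 27025 genes with such windows, 4.05% hold the motif, so a match is a description of letters and not a site in use.
Bcl2l11, chr2:128125788-128126087, plus strand: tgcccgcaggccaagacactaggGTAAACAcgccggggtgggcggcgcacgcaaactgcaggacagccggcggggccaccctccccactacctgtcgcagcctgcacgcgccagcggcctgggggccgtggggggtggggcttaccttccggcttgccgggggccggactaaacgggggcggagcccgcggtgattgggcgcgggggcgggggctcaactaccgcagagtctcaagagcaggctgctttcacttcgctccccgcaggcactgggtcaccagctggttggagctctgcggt
Bbc3, chr7:16310011-16310310, plus strand: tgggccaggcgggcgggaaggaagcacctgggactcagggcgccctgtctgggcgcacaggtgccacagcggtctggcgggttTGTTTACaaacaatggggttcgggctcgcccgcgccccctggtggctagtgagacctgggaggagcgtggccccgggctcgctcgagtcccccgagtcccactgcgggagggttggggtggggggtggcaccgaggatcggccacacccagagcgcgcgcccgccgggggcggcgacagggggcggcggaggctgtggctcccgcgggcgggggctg
The other 8 members held neither form in their windows, and nothing about the factor follows from that.

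Bcl2l11 (ENSMUSG00000027381, chromosome 2, 128126038 to 128162547, plus strand) was at 10.9, 13.0 and 6.45 CPM in CD38-positive and at 12.7, 8.73 and 7.09 CPM in CD38-negative libraries. Both libraries of pair 3 were low, and the populations interleaved. Its log2 fold change was 0.07 (95% interval -0.51 to 0.66; edgeR adjusted p = 0.981). Bbc3 (ENSMUSG00000002083, chromosome 7, 16308393 to 16318205, plus strand), the scarcest member, had 9, 12 and 10 reads in the CD38-positive and 13, 40 and 8 reads in the CD38-negative libraries. The 40 reads of CD38-negative replicate 2 stood above the other 5 libraries. The log2 fold change of Bbc3 was -0.76 (95% interval -2.01 to 0.49; edgeR adjusted p = 0.932), and it was -0.10 when that library was left out of a fit without the block. Foxo3, named here for the motif and not by rule, averaged 25.8 ± 0.339 CPM in the CD38-positive population and 27.4 ± 4.31 CPM in the other (SD, n = 3 each).

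The balance of the family was read as the summed CPM per kilobase of the 4 survival members divided by that of the 6 death members. The survival sum was 22.6, 19.5 and 21.0 CPM per kilobase in CD38-positive replicates 1, 2 and 3 and 21.4, 28.6 and 19.1 in their CD38-negative partners. The death sum was 74.3, 75.6 and 64.0 CPM per kilobase in the CD38-positive and 67.5, 57.9 and 74.2 in the CD38-negative libraries. The death sum exceeded the survival sum in 6 of 6 libraries on this scale, and also per kilobase of the longest transcript and as plain CPM. As plain CPM the ratio of the sums was higher, at 0.473 to 0.860. Per kilobase of exon, the ratio to the 2 effectors alone was 0.627 to 1.28, above 1 only in CD38-negative replicate 2. The ratio to the 4 BH3-only genes alone was 0.404 to 0.803. The direction depended on summing: the mean of log2(CPM + 0.5) over the members was higher for the survival than for the death side in 6 of 6 libraries, by 0.32 to 1.04. The ratio was 0.304, 0.257 and 0.328 in CD38-positive libraries, a mean of 0.297 ± 0.0361 (SD, n = 3). It was 0.317, 0.494 and 0.257 in CD38-negative libraries, a mean of 0.356 ± 0.123 (SD, n = 3). The single high value was that of CD38-negative replicate 2, and the other 5 libraries lay between 0.257 and 0.328. The paired log2 differences of the ratio, CD38-positive minus CD38-negative, were -0.06, -0.94 and 0.35, a mean of -0.22 with an SD of 0.66 (n = 3 pairs). The difference was thus smaller than the spread between pairs; a score over chosen genes is given without a p. With pair 2 left out the mean was 0.15, and with only CD38-negative replicate 2 left out, as a difference of group means, it was 0.05.

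**Figure D3:**
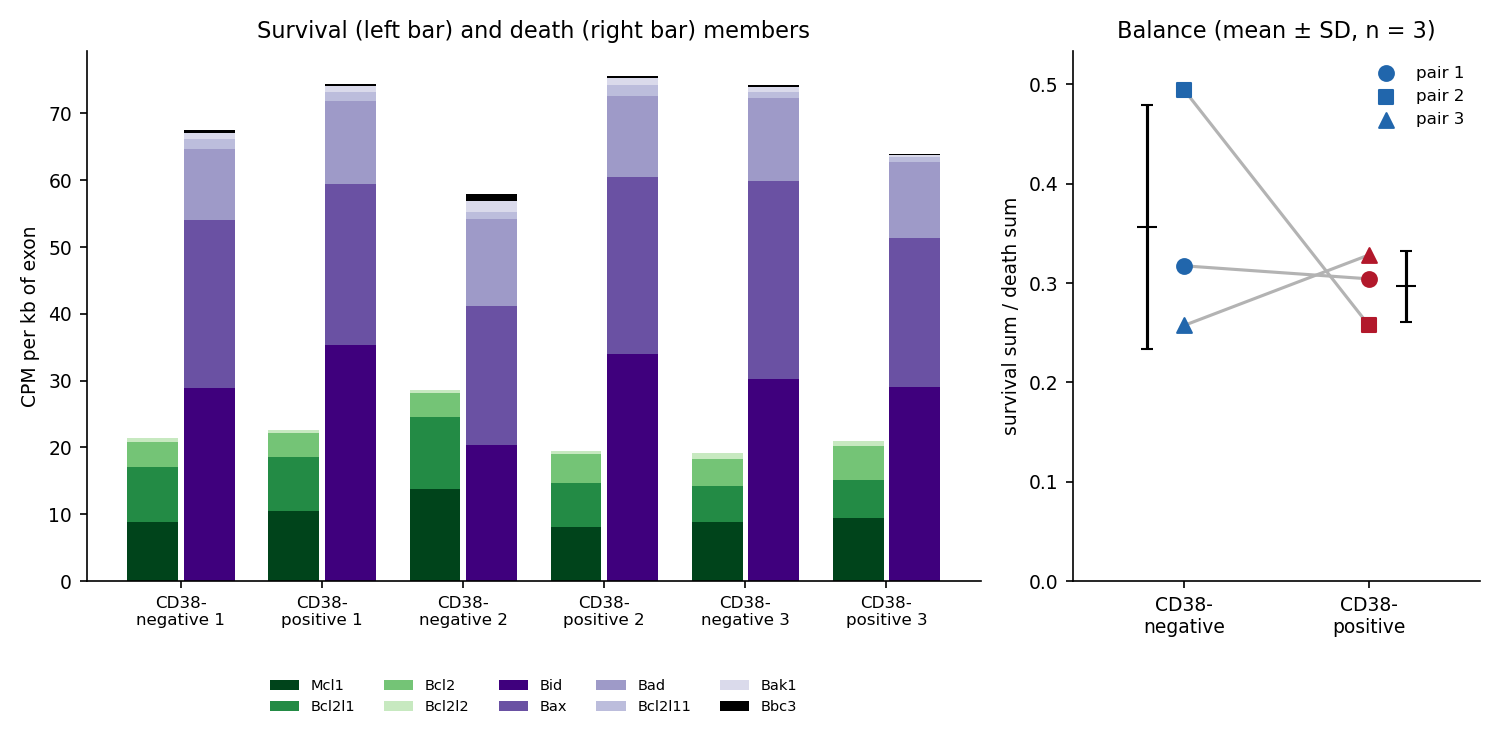
Left, CPM per kilobase of exon of the survival members (green, left bar of each library) and death members (purple and black, right bar), stacked by gene for the 6 libraries ordered by pair; right, the ratio of both sums with its mean ± SD (n = 3). The death bar is the taller in all 6 libraries, and the ratio of CD38-negative replicate 2, at 0.494, lies above the other 5.

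The make-up of each sum was read as the share each gene gave to it. Of the survival sum, Mcl1 gave 44.3% ± 2.62 in CD38-positive and 45.1% ± 3.58 in CD38-negative libraries (SD, n = 3 each). Bcl2l1 gave 32.1% ± 4.40 and 34.9% ± 5.31 of it, and Bcl2 20.7% ± 4.34 and 17.1% ± 4.03, so these 3 shares differed by less than the sum of their SDs. Per kilobase of the longest transcript Bcl2l1 gave the larger part, 43.5% ± 5.27 and 47.0% ± 6.13, and Mcl1 33.8% ± 2.25 and 34.0% ± 3.18. On the death side, per kilobase of all exons, Bid gave 45.9% ± 1.35 in CD38-positive and 39.6% ± 3.83 in CD38-negative libraries, and Bax 34.1% ± 1.42 and 37.7% ± 2.14 (SD, n = 3 each). These shares were not tested, and shares of 1 sum are not independent.

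Ratios of single survival to single death genes were read on the same scale. The ratio of Bcl2 to Bax, often used as an index of apoptotic readiness, was 0.180 ± 0.0431 for CD38-positive and 0.154 ± 0.0219 for CD38-negative libraries on the CPM per kilobase scale (SD, n = 3 each), with paired log2 differences of -0.01, -0.14 and 0.77. Its highest library was CD38-positive replicate 3, at 0.229. The ratio of Mcl1 to Bcl2l11 was 8.17 ± 3.37 and 9.40 ± 3.58 (SD, n = 3 each), with paired log2 differences of 0.49, -1.35 and 0.24. In each of these ratios the direction differed between pairs.

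Other genes of the pathway were read from 3 lists. Of 15 other BCL2 family genes 8 passed the filter, and 0 passed an adjusted p of 0.05 in edgeR; their median log2 fold change was -0.10, against 0.00 for all genes. At an unadjusted p under 0.05 there was 1 of the 8, Pmaip1, where 5.08% of all genes reached it. DESeq2 and limma-voom also called 0 of the 8. Bcl2l10 and Hrk had 0 reads in each library, which allows up to 3 counts, 0.166 to 0.183 CPM. The 3 Bcl2a1 copies listed, near-identical survival genes known from granulocytes, had between 5 and 16 reads each per library and were not tested, as were Bik and Bcl2l15; reads shared among such copies make their counts uncertain.

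Pmaip1 (ENSMUSG00000024521) encodes NOXA, a BH3-only protein that binds and neutralises MCL1. It was at 17.7, 11.7 and 23.9 CPM in CD38-positive replicates 1, 2 and 3 and at 9.17, 7.95 and 11.3 CPM in their CD38-negative partners. Every CD38-positive library lay above every CD38-negative one. Of all genes, 6.53% had no overlap in either direction. The paired log2 differences were 0.94, 0.55 and 1.07. The log2 fold change was 0.86 (SE 0.25, 95% interval 0.33 to 1.40; edgeR unadjusted p = 0.00390), but after adjustment over all genes p was 0.888, so the difference did not pass. Over its alternatives the adjusted p ran from 0.167 to 0.9996. The summed share of the endothelial and stromal markers was higher in the CD38-positive library of 2 of 3 pairs, those of the granulocyte and monocyte, erythroid, and T and NK cell markers in 1 of 3 each, and that of the B and plasma cell markers in 0 of 3. Single markers did not all follow their sums, and 13 of the 16 granulocyte and monocyte markers had a positive log2 fold change. The part of these cells in the Pmaip1 values was not tested.

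**Figure D4:**
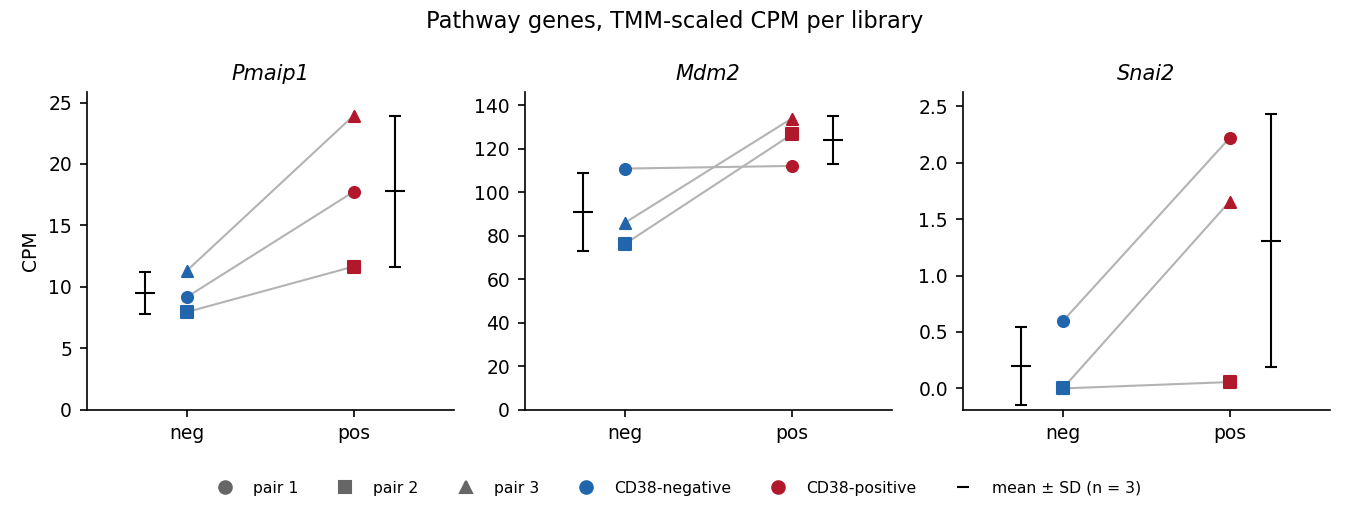
Normalised level (CPM, linear axes) of 3 listed pathway genes with an unadjusted p under 0.05, drawn as for the members, with black bars for the mean ± SD (n = 3). Pmaip1 and Mdm2 do not overlap between populations, as 6.53% of all genes do not. Snai2 does overlap, and none of the 3 passed the adjusted threshold.

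Downstream of the family, 21 of 21 genes for the apoptosome, caspases, their inhibitors and mitochondrial death factors were tested, and 0 passed an adjusted p of 0.05 in edgeR, DESeq2 or limma-voom. In edgeR, 13 had a positive and 8 a negative log2 fold change, with a median of 0.08. An unadjusted p under 0.05 was reached by 1 of the 21, and by 5.08% of all genes.

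Upstream, 16 of 17 listed regulators were tested and 0 passed an adjusted p of 0.05 in edgeR, DESeq2 or limma-voom; Trp73 had 0 reads throughout. In edgeR, 5 had a positive and 11 a negative log2 fold change, with a median of -0.15. An unadjusted p under 0.05 was reached by 2 of the 16, and by 5.08% of all genes. Mdm2 (ENSMUSG00000020184), the ligase that limits p53 and is itself a p53 target, was at 112, 127 and 134 CPM in CD38-positive and 111, 76.2 and 86.0 CPM in CD38-negative libraries. The libraries of pair 1 were nearly level. The groups did not overlap, which held for 1 of the 16 regulators tested and for 6.53% of all genes. For Mdm2 the log2 fold change was 0.46 (95% interval 0.04 to 0.89, edgeR unadjusted p = 0.0370, adjusted p = 0.926). Snai2 (ENSMUSG00000022676), which encodes a repressor of Bbc3, had 37, 1 and 30 reads in CD38-positive and 10, 0 and 0 reads in CD38-negative libraries (edgeR unadjusted p = 0.00387, adjusted p = 0.888). CD38-positive replicate 2 thus had fewer reads than CD38-negative replicate 1. The stromal marker Cxcl12 had 2526, 205 and 2084 reads in CD38-positive and 1753, 397 and 422 reads in CD38-negative libraries, and Lepr had 61, 4 and 71 against 54, 10 and 16 reads. Like Snai2, both were highest in CD38-positive replicates 1 and 3 and next in CD38-negative replicate 1. Sparc, also on the endothelial and stromal list, was higher in 3 of 3 pairs (log2 fold change 1.82, edgeR adjusted p = 0.125). Not every gene of the list had this order. Col1a1 had 21, 19 and 15 reads against 35, 27 and 25, lower in 3 of 3 pairs, and Emcn had a log2 fold change of -0.37. Of the 8 genes of the list that were tested, 6 had a positive and 2 a negative log2 fold change. The summed share of the 9 endothelial and stromal markers was 0.0222%, 0.0108% and 0.0249% of counts in CD38-positive and 0.0186%, 0.0116% and 0.0114% in CD38-negative libraries, and its part in the Snai2 values was not tested.

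Of the members with a mean of at least 10 CPM, Bcl2l1 varied most between libraries, with an SD of 0.37 in log2 CPM over the 6. The genes whose centred log2 CPM lay closest to it over the 6 libraries were Xk, Usp36 and Ppp1r15b, with root mean square differences of 0.04, 0.05 and 0.08 on the log2 scale. All 3 shared with Bcl2l1 their highest level in CD38-negative replicate 2, at 36.5, 14.1 and 101 CPM. They were picked for likeness over these same libraries, so the shared peak follows from the choice.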

How the data were processed

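For each of the 6 libraries the authors deposited 1 table of unnormalised counts, by Ensembl gene. Per the submitters' processing notes, cutadapt, STAR and HTSeq 0.6.1p1 were used with GRCm38 (mm10); the strand setting and annotation release are not given in the sources used here, so reads over antisense or overlapping genes are uncertain. Symbols matched 49326 of 49585 identifiers; coordinates and exon lengths came from GENCODE M21 (GRCm38).

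Libraries were grouped by the stated population. In R 4.3.3, filterByExpr kept 14785 genes, libraries were scaled by TMM, and CD38-positive was tested against CD38-negative with edgeR 4.0.16 (quasi-likelihood F-test, pair plus population, Benjamini-Hochberg over all genes, threshold 0.05). Intervals are 95% and use a Wald SE from that fit. The pairs come from the series' design text, and paired libraries deviated together from their group means (correlations of 0.34, 0.12 and 0.24), so the numbers were taken to pair them. Any 2 libraries of a group differed beyond sampling noise (chi-square divided by its degrees of freedom at least 47.4). That lowest value was between CD38-negative replicates 1 and 2, and the highest, 106, between CD38-positive replicates 1 and 2. A pool of 10 mice is 1 replicate. Intervals and floors cover counting error and spread between these libraries only, since reads carry no molecular identifiers. The fit was tested on simulated counts.

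Members and lists were chosen with earlier results of these data known. Named were all members, up to 6 genes per pathway list with an unadjusted p under 0.05, and the 3 genes most like the most variable member. The values of 1 gene that this rule names are not reported here. The promoter motif was chosen after the windows were read. Alternatives were no block, DESeq2 1.42.0, limma-voom (limma 3.58.1), other scalings and filters, each pair left out, and other forms of the balance; leaving out CD38-negative replicate 2 alone was chosen after seeing the data.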

Additional observations from a re-analysis of the deposited data

How the results depend on the processing

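The counts of members and of pathway genes called, all 0, were 0 under each alternative. In 3 of the 11 alternatives (no replicate block, unscaled library totals, and without CD38-negative replicate 2) no gene at all was called, so a 0 there says nothing about stability. The other 8 called 2 to 80 genes of all tested, against 2 here. With so few calls, a 0 among the listed genes says little there as well. The mean paired difference of the balance moved by less than its SD. That difference ran from -0.50 to 0.15 over the fits without 1 pair and was 0.06 as a mean of log2 CPM + 0.5, -0.05 against the effectors only and -0.32 against the BH3-only members only; without the block it was -0.22 with a pooled SD of 0.36. Of 109 alternative log2 fold changes of single members, 97 kept their sign. With 1 pair left out, Mcl1 ran from -0.34 to 0.17, Bcl2l2 from -0.15 to 0.14, Bax from -0.25 to 0.15, Bcl2l11 from -0.19 to 0.23 and Bad from -0.12 to 0.063; with CD38-negative replicate 2 alone left out of a fit without the block, Mcl1 was at 0.088, Bcl2l2 at -0.24 and Bad at 0.054. Bcl2l2 was at -0.0076 without the replicate block and at -0.00058 with unscaled library totals, and Bad at 0.00017 with no filter beyond 1 count. The cause of these changes was not tested. Bbc3 failed the filter without pair 2 and has no value there. Over all alternatives the smallest adjusted p of a member was 0.696. Under 3 counts, at most 0.183 CPM, no difference was detectable at this depth.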
